A study of Mus musculus with 127 samples.

Results

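The 9 genes described here were listed together as gelatinase granule and late secreted genes of mouse neutrophils. They encode the metalloproteases Mmp8, Mmp9 and Mmp25, the resistin-like protein Retnlg, the protease inhibitors Slpi, Stfa1, Stfa2 and Wfdc21, and the membrane protein Ifitm6. The name is that of the list, and not all 9 were limited to late cells here. They were chosen by gene symbol, and all 9 were rows of the deposited expression table, out of 23946 genes in all. Wfdc21 was listed under its older symbol. Their levels were read in 127 single cells, by sorted gate and by the cell class that the authors deposited for each cell.

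The cells came from crushed hind limb bones of C57BL/6 mice, all wild-type, and were enriched from marrow with beads for CD117 (the receptor Kit, a progenitor marker) and sorted as GMP-P, a name that the labels do not spell out. The cell type label gives GMP-P for all 3 gates, while the titles of the CD11b+ cells have GMP only. All 3 gates were labelled CD11b+: 46 cells came from the Ly6g high gate, 41 from the Ly6g low gate and 40 from a gate labelled CD11b+ with no Ly6g term. CD11b is an integrin chain of myeloid cells, and Ly6g is a surface protein that mouse granulocytes gain as they mature. No animal was named and each sample was 1 cell, so a gate counted as 1 sample, differences between gates or classes carry no test, and a standard deviation (SD) here is a spread between cells.

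Neutrophils fill their granules in sequence as they mature. Primary granules with elastase and myeloperoxidase come first, specific granules with lactoferrin next, gelatinase granules with Mmp9 later, and a set of secreted and surface proteins last. Matrix metalloproteases cut collagens and other matrix proteins, while WAP-domain proteins such as Slpi and stefins such as Stfa1 inhibit the proteases that neutrophils and their neighbours carry.

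Promoter windows (250 bases before to 50 after each gene's start, RefSeq, build GRCm38.p6) were matched by symbol for 7 of the 9 genes, all but Mmp9 and Wfdc21. The windows of Mmp8, Mmp25, Retnlg and Ifitm6, chosen after the values were seen, are shown as examples of genes with their highest mean in one cell class, Myelo-4; Mmp25 is the one matched gene without the first of the motifs below. Capitals mark the letters TTNNGNAA, the core that C/EBP factors of granulocytes are known to bind, and GAGGAA, an ETS-type word bound by PU.1, on either strand; no 2 of the marked stretches overlapped. The windows lie at chr9:7558179-7558478 on the plus strand for Mmp8, chr17:23645220-23645519 on the minus strand for Mmp25, chr16:48872358-48872657 on the plus strand for Retnlg and chr7:141016843-141017142 on the minus strand for Ifitm6.
Mmp8: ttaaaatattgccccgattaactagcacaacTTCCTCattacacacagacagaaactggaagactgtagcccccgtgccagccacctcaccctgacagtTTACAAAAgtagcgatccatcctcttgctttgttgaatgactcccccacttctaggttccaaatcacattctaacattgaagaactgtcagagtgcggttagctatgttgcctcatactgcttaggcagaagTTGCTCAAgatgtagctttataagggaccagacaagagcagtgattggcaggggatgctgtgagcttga
Mmp25: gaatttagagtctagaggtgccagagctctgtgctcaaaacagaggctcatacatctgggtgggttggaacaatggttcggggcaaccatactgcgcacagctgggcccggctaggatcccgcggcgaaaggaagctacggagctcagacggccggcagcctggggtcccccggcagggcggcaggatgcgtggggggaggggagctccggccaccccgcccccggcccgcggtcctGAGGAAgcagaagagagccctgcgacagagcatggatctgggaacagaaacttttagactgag
Retnlg: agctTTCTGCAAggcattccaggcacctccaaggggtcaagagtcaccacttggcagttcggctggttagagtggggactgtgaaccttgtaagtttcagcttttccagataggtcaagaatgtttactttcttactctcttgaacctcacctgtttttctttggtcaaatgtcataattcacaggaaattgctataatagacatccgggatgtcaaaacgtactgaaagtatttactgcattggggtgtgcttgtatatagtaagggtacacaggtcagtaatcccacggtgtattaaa
Ifitm6: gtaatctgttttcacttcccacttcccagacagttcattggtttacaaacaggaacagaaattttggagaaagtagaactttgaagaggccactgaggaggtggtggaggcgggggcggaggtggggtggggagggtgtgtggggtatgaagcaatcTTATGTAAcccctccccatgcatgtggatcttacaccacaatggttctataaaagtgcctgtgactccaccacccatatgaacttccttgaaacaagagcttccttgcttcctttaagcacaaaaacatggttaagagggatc
The C/EBP-type word was found in 6 of the 7 windows (Mmp8, Retnlg, Slpi, Stfa1, Stfa2 and Ifitm6), against 40.7% of 32851 windows of the same length. GAGGAA was found in 4 of the 7 (Mmp8, Mmp25, Stfa1 and Stfa2), against 28.3% of the windows. In Mmp8 the C/EBP-type matches began 151 and 19 bases before the start site, in Retnlg 246 and in Ifitm6 93. These matches are a description of the letters and not of binding.

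Stfa1 and Stfa2 belong to a stefin cluster on chromosome 16, and their start regions are shown because related copies in this cluster share short stretches. Capitals mark a run of 21 bases that both share, at chr16:36277098-36277197 (plus strand) for Stfa1 and chr16:36408314-36408413 (minus strand) for Stfa2.
Stfa1: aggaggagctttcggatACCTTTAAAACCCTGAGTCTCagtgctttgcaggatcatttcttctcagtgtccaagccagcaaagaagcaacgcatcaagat
Stfa2: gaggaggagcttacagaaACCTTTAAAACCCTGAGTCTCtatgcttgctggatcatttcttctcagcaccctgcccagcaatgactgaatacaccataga
Over the aligned promoter windows, Stfa1 and Stfa2 were 80.7% identical, and Stfa2 and its neighbour Stfa2l1 were 92.9% identical. In the GENCODE transcripts, 65 of 710 stretches of 75 bases in Stfa1 also occurred in BC100530, another stefin gene, and 23 of 397 in Stfa2 also occurred in Stfa2l1. The other 7 genes shared none with another gene. No such stretch was shared between Stfa1 and Stfa2, and the shared ones were 9.15% and 5.79% of each gene's stretches. The stefin values are uncertain where the counting could split the shared reads.

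Levels are given in TPM, a share of all transcripts that is corrected for transcript length, and a gene was called detected at 1 TPM. The cells held 821 to 5173 detected genes, with medians of 1695 in the Ly6g high, 2521 in the Ly6g low and 2464.5 in the CD11b+ gate. The deposited classes were Myelo-2 (72 cells), Myelo-4 (16), Myelo-3 (9), HSCP-2 (7), Gran-2 (6), Myelo-1 (5), Mono (5), Gran-1 (4) and 1 cell each of MDP, Multi-Lin and Eryth. All 13 Myelo-4 cells outside the CD11b+ gate came from the Ly6g high gate, 3 came from the CD11b+ gate and 0 from the Ly6g low gate. Detected genes were fewer in the Myelo-4 (median 1409) and Myelo-3 (1282) cells than in the Myelo-2 (2239.5) or Gran-2 (4315.5) cells. In the Ly6g high, Ly6g low and CD11b+ gates, mean Ly6g stood at 936, 353 and 171 TPM. Mean Itgam, which encodes CD11b, stood at 228, 112 and 66.9 TPM. Ly6g RNA was thus higher in the Ly6g high than the Ly6g low gate, while Itgam was lowest in the gate labelled CD11b+ only. Elane, the elastase of primary granules, lay between 23368 and 66355 TPM in the 8 Gran cells of the CD11b+ gate and had a median of 0.76 TPM in the Myelo-2 cells of the Ly6g high gate.

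In outline, the 9 genes did not share one pattern. Wfdc21 and, in part, Slpi were high in the Gran classes with high Elane. Ifitm6 was near 0 in those classes and high in nearly all Myelo-2 cells. Retnlg reached 10 TPM in 25 of 72 Myelo-2 cells and 12 of 16 Myelo-4 cells. Mmp9 did so in 15 of 16 Myelo-4 cells and in 13 Myelo-2 cells, 11 of them from the Ly6g high gate. Mmp8 reached 100 TPM in Myelo-4 cells alone among these 127 cells. Mmp25 and Stfa1 were found in a few Myelo-2 and Myelo-4 cells, and Stfa2 was nearly absent. How the classes were assigned is not stated, and they may rest on these same values, so class differences are a description.

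**Figure D1:**
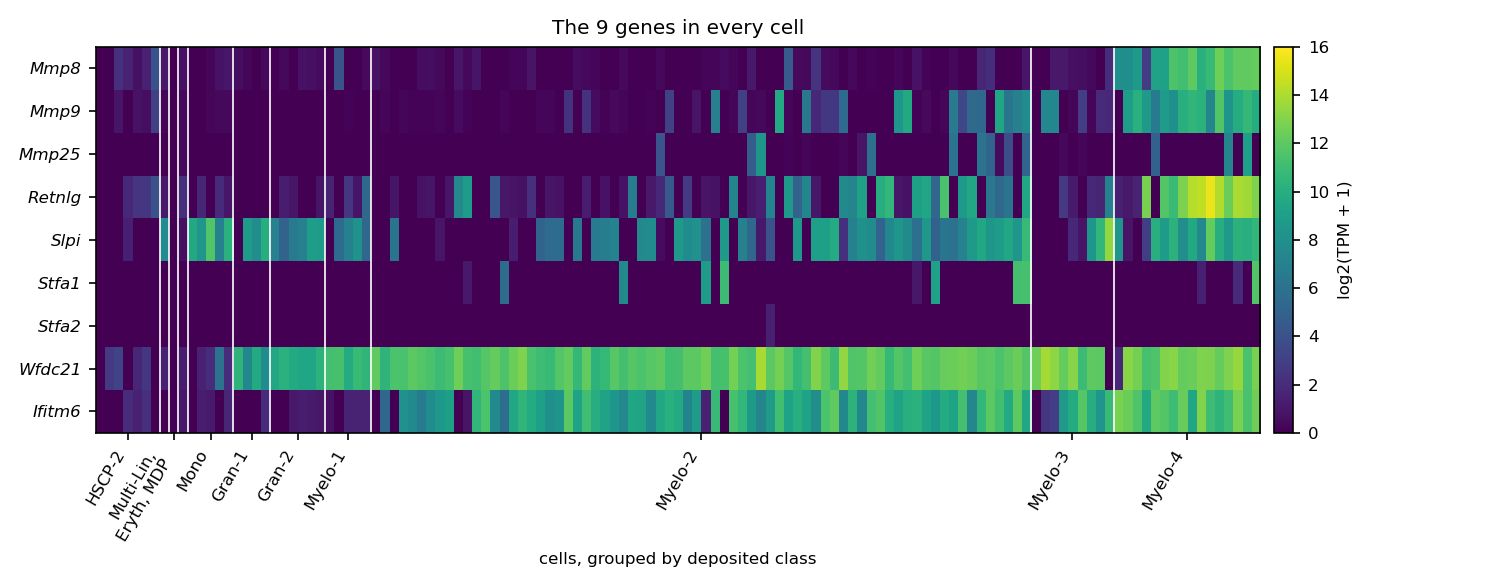
Heat map of the 9 genes (rows) in all 127 cells (columns), as log2(TPM + 1) from 0 (dark) to 16 (yellow), with cells grouped by deposited class between white lines and ordered within a class by the sum of the rows. Wfdc21 is bright from the Gran classes onward, Ifitm6 from Myelo-2 onward and Mmp8 in the Myelo-4 cells, of which 15 of 16 reach 10 TPM.

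Mmp8, the neutrophil collagenase, was high in a single class. In the 16 Myelo-4 cells it ranged from 6.27 to 5702 TPM with a median of 2053, and 15 of the 16 were at 100 TPM or more. In the 72 Myelo-2 cells the median was 0.065 TPM and the highest value 22.8. The highest values elsewhere were 16.5 TPM in a Myelo-1 cell and 15.4 TPM in an HSCP-2 cell, so no cell outside Myelo-4 reached 100 TPM. Within the Ly6g high gate the classes did not overlap: the 13 Myelo-4 cells lay between 6.27 and 5702 TPM and the 27 Myelo-2 cells between 0 and 0.94 TPM. The 3 CD11b+ Myelo-4 cells held 249, 2268 and 4377 TPM, inside the range of the Ly6g high ones.

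By gate, Mmp8 was detected in 32.6% of the Ly6g high cells (15 of 46, exact 95% interval 19.5 to 48%), 7.32% of the Ly6g low cells (3 of 41, 1.54 to 19.9%) and 30% of the CD11b+ cells (12 of 40, 16.6 to 46.5%). These intervals, here and below, are Clopper-Pearson intervals and cover counting error only. At 10 TPM or more the shares were 26.1% (12 cells), 2.44% (1 cell) and 12.5% (5 cells). The Ly6g high gate ranged from 0 to 5702 TPM around a median of 0.27, the Ly6g low gate from 0 to 22.8 around 0.14, and the CD11b+ gate from 0 to 4377 around 0.505. All 3 medians were thus below 1 TPM, while the means were 644, 0.917 and 174 TPM. The 12 Ly6g high and the 3 CD11b+ cells at 100 TPM or more were all Myelo-4 cells, a class with 0 cells in the Ly6g low gate. Cell 17 alone made up 63% of the CD11b+ total, whose mean was 65.9 TPM with that cell left out. In the Ly6g low gate 1 cell at 22.8 TPM made up 60.6%, and the mean of the other cells was 0.37 TPM.

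Mmp9, the gelatinase for which gelatinase granules are named, was spread more widely. All 13 Myelo-4 cells of the Ly6g high gate held it, from 97.5 to 3227 TPM with a median of 482. In the 27 Myelo-2 cells of the same gate it ranged from 0 to 879 TPM with a median of 5.09, was detected in 17 and reached 10 TPM in 11. These 2 classes overlapped, with 6 of the 13 Myelo-4 cells above every Myelo-2 cell. In the 31 Myelo-2 cells of the Ly6g low gate Mmp9 was detected in 3, reached 10 TPM in 1 (cell 17, at 127 TPM) and had a median of 0.11. In the 14 Myelo-2 cells of the CD11b+ gate it was detected in 1, at 41.9 TPM. Mmp9 was listed at 0 in all 10 Gran cells.

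Mmp9 was detected in 69.6% of the Ly6g high cells (32 of 46, 54.2 to 82.3%), 7.32% of the Ly6g low cells (3 of 41, 1.54 to 19.9%) and 17.5% of the CD11b+ cells (7 of 40, 7.34 to 32.8%). With 10 TPM as the limit, the shares were 52.2%, 2.44% and 12.5%. The medians were 45.6, 0.11 and 0 TPM and the highest values 3227, 127 and 1069 TPM. The Ly6g high gate stood above the others by its share of positive cells as well as by its top values, and 17 of its 46 cells lay above the highest Ly6g low cell. The mean was 333 TPM in the Ly6g high gate. It was 3.42 TPM in the Ly6g low gate, or 0.338 without cell 17, and 61.1 TPM in the CD11b+ gate, or 35.2 without its highest cell.

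Mmp25, a metalloprotease held on the cell membrane, was rare. It was detected in 12 of 127 cells, 9 of the 72 Myelo-2 and 3 of the 16 Myelo-4 cells, and in every one of those 12 it was at 10 TPM or more. The positive cells were 7 of 46 in the Ly6g high gate, 3 of 41 in the Ly6g low gate and 2 of 40 in the CD11b+ gate. Their highest values were 522, 348 and 66.9 TPM, and the medians of all 3 gates were 0. The highest cell alone made up 62.2%, 78.9% and 72.3% of the gate total, and the means of 18.2, 10.8 and 2.32 TPM were 7.05, 2.33 and 0.658 TPM without it. No order of the gates can be read from so few cells.

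Retnlg, a secreted relative of resistin, reached the highest level of the 9 genes. In Ly6g high cell 70, a Myelo-4 cell, it stood at 47005 TPM. The 13 Myelo-4 cells of that gate ranged from 0 to 47005 TPM with a median of 6750, and 10 of them lay between 1881 and 47005 TPM. The other 3 held 0, 1.16 and 2.01 TPM, so the class was split into cells with very high and cells with almost no Retnlg. Myelo-2 cells were mixed too: of 72, 25 reached 10 TPM, 18 reached 100 TPM, the highest stood at 2680 TPM and the median was 0.92. The share of Myelo-2 cells at 10 TPM was 11 of 27 in the Ly6g high, 12 of 31 in the Ly6g low and 2 of 14 in the CD11b+ gate. In the 10 Gran cells the highest value was 1.32 TPM.

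Retnlg was detected in 65.2% of the Ly6g high cells (30 of 46, 49.8 to 78.6%), 51.2% of the Ly6g low cells (21 of 41, 35.1 to 67.1%) and 35% of the CD11b+ cells (14 of 40, 20.6 to 51.7%). Shares at 10 TPM or more were 45.7%, 31.7% and 15%. The medians were 4.63, 1.08 and 0 TPM and the highest values 47005, 995 and 15833 TPM. The means were 3298, 97.6 and 590 TPM, so the order of the Ly6g low and CD11b+ gates differed between the mean and the median. CD11b+ cell 17 made up 67.1% of its gate's total, and the other cells had a mean of 199 TPM.

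Slpi, an inhibitor of neutrophil elastase, was not tied to the late classes. It was detected in 5 of 5 Mono cells (126 to 3178 TPM, median 825), 9 of 10 Gran cells (0 to 990, median 182), 45 of 72 Myelo-2 cells (0 to 1869, median 48) and 14 of 16 Myelo-4 cells (0 to 4728, median 649). These 4 classes overlapped in level. In the 7 HSCP-2 cells it was detected in 1, at 1.61 TPM. The single highest value, 11091 TPM, was in a Myelo-3 cell (CD11b+ cell 13).

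By gate, Slpi was detected in 65.2%, 68.3% and 62.5% of the Ly6g high, Ly6g low and CD11b+ cells (30 of 46, 28 of 41 and 25 of 40), with medians of 121, 64.1 and 44.2 TPM. The 3 shares lay within one another's intervals (49.8 to 78.6%, 51.9 to 81.9% and 45.8 to 77.3%). The means were 451, 203 and 486 TPM. Without the highest cell of each gate they were 356, 129 and 214 TPM, and the CD11b+ gate was then below the Ly6g high gate.

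Wfdc21, a small WAP-domain protein, was the most widely found of the 9. The 10 Gran cells held 172 to 1362 TPM (median 800), the 5 Myelo-1 cells 901 to 2648 (median 1756), the 72 Myelo-2 cells 1290 to 15395 (median 3440) and the 16 Myelo-4 cells 2.56 to 11183 (median 6782). Neighbouring classes in this order overlapped, while the Gran cells lay below the Myelo-2 cells but for a narrow overlap. The 7 HSCP-2 cells reached 8.78 TPM at most and the 5 Mono cells 67.1 TPM. Values of a few TPM were common in cells that are not granulocytic by class (HSCP-2, Mono, MDP, Multi-Lin and Eryth): 10 of these 15 were at 1 TPM or more for Wfdc21, 8 for Retnlg and 5 for Mmp8, while 1 of 15 reached 10 TPM for each of them. Levels below 10 TPM were therefore not read as a sign of granulocytic cells. The detected shares and the filter on low values used below still have the 1 TPM limit, and so count such levels.

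Wfdc21 was detected in all 46 Ly6g high and all 41 Ly6g low cells and in 34 of 40 CD11b+ cells (85%, 70.2 to 94.3%). The gates ranged from 1.81 to 10669 TPM (median 3985), from 1.39 to 15395 (median 3454) and from 0 to 14603 (median 1326). The ranges overlapped almost fully, with a lower median in the CD11b+ gate, which held all 4 Gran-1 and 4 of the 6 Gran-2 cells. The means were 4241, 3918 and 2338 TPM.

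Ifitm6, a member of the interferon-induced transmembrane family, followed the step from Gran and Myelo-1 to Myelo-2. The 10 Gran cells reached 3.13 TPM at most and the 5 Myelo-1 cells 2.02 TPM. Of the 72 Myelo-2 cells 66 were at 10 TPM or more, with a range of 0 to 4387 and a median of 630 TPM. The 16 Myelo-4 cells held 707 to 7857 TPM with a median of 3193. All Myelo-4 cells lay above all Gran and Myelo-1 cells, and Myelo-2 and Myelo-4 overlapped.

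Ifitm6 was detected in 97.8% of the Ly6g high cells (45 of 46, 88.5 to 99.9%), 92.7% of the Ly6g low cells (38 of 41, 80.1 to 98.5%) and 57.5% of the CD11b+ cells (23 of 40, 40.9 to 73%). Shares at 10 TPM or more were 91.3%, 73.2% and 40%. The medians had the same order, 1058, 240 and 2.64 TPM, over ranges of 0.78 to 7857, 0 to 4159 and 0 to 7175 TPM. The means were 1788, 755 and 727 TPM, and the ranges overlapped.

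The stefins, which inhibit cysteine proteases such as the cathepsins, were sparse. Stfa1 was detected in 12 of 127 cells, 9 Myelo-2 and 3 Myelo-4 cells, and was listed at 0 in every other class. The 4 highest values were 2019, 2506, 2565 and 3267 TPM. The shares were alike in the 3 gates, at 4 of 46, 4 of 41 and 4 of 40 cells, and the means of 127, 76.8 and 66.1 TPM were 57.1, 16 and 16 TPM without the highest cell of each gate. Stfa2 was detected in 1 cell, Ly6g low cell 23 of class Myelo-2, at 1.70 TPM. It was listed at 0 in all 46 Ly6g high and all 40 CD11b+ cells, which leaves exact upper limits of 7.71% and 8.81% of cells at this depth.

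**Figure D2:**
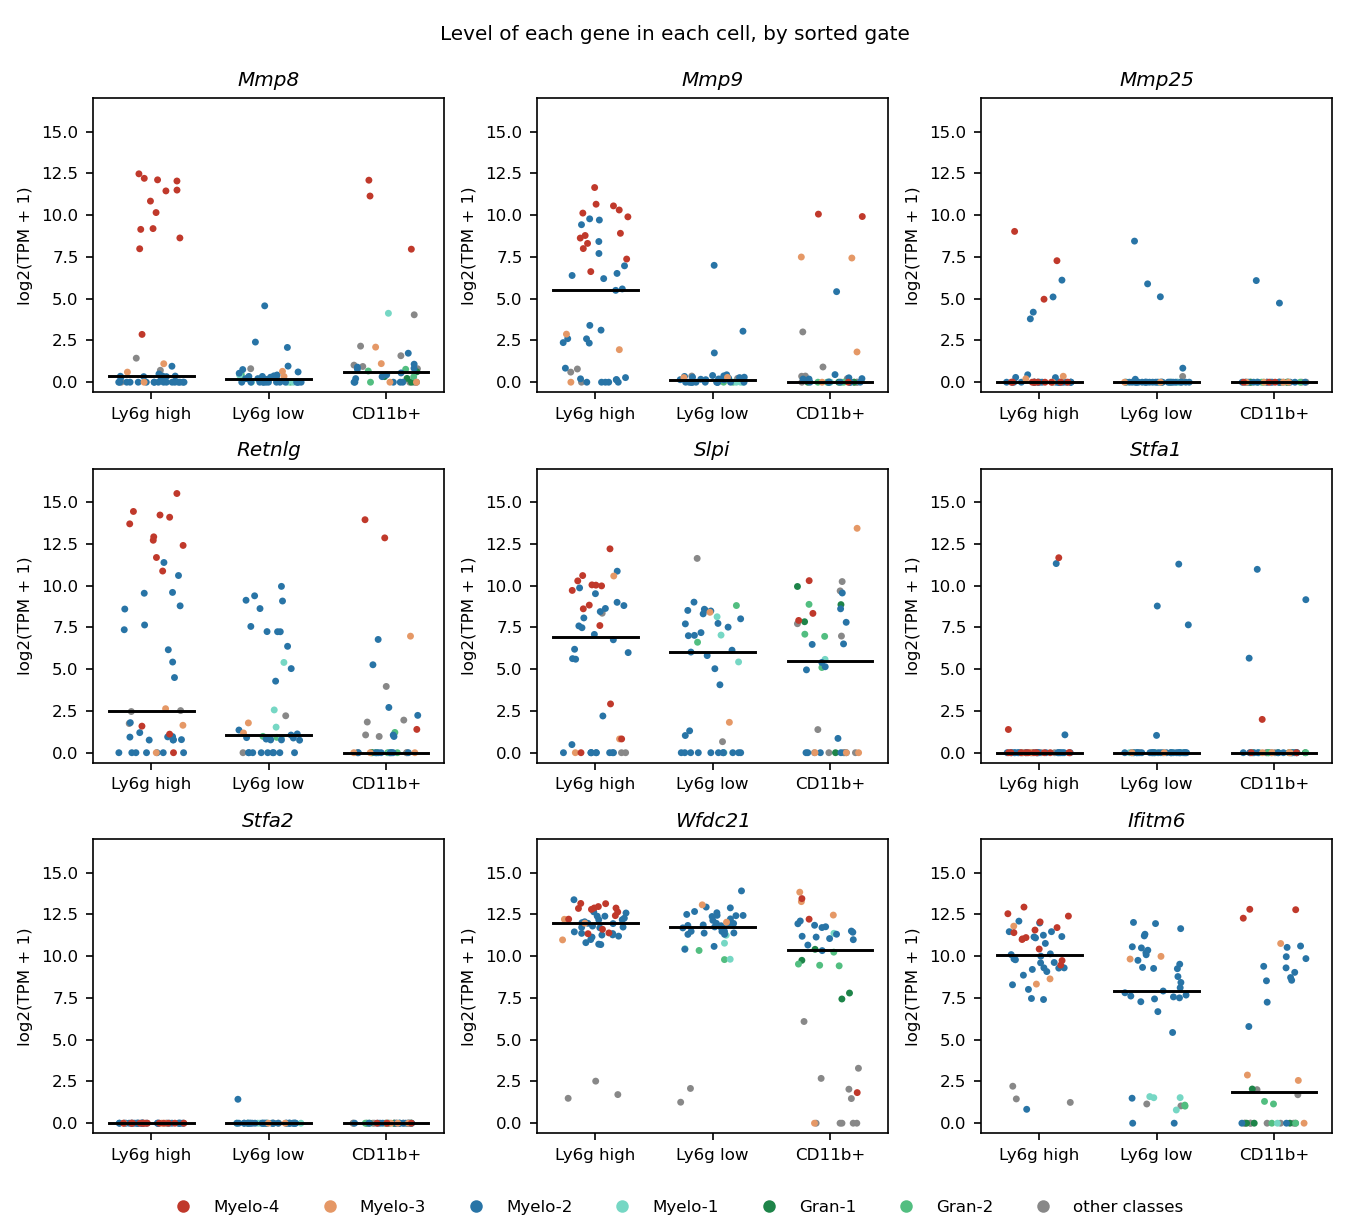
Each of the 9 panels shows 1 gene as log2(TPM + 1) (vertical axis) in every cell (points, coloured by deposited class) of the 3 gates, with a bar at the gate's median. The highest cell for Mmp8, Mmp9 and Retnlg in the Ly6g high gate is a Myelo-4 cell, though some Myelo-4 cells have almost no Retnlg, Wfdc21 is high in nearly all cells, and Stfa2 has 1 point above 0.

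The gates were then compared by the log2 ratio of mean TPM + 1, and a gene counted as different when the ratio was 2-fold or more. In the Ly6g high over the Ly6g low gate, 5 of the 9 genes were at least 2-fold higher, against 7.60% of all 23946 genes, and 0 were at least 2-fold lower, against 12.2%. The median log2 ratio was 1.15 over the 9 genes and 0 over all genes. Of the 9, 6 passed a filter on low values (detected in 25% of one gate's cells). Among all genes that passed it 7.96% were higher and 23.7% lower, with a median of -0.29. Of those 6, 5 were higher and 0 lower. A gene could pass through 1 group alone, the one where it was high, and could then hardly be called different in the other direction. Mmp8 and Mmp9 passed here through the Ly6g high gate alone, each detected in 7.32% of the Ly6g low cells. Counts after the filter, here and below, are thus a description and add no support to the counts over all genes. The ratios were 8.39 for Mmp8, 6.24 for Mmp9, 5.06 for Retnlg, 1.24 for Ifitm6 and 1.15 for Slpi. On the scale of mean log2(TPM + 1), where single high cells weigh less, Mmp8 stood at 3.01 ± 4.68 against 0.43 ± 0.84 (SD over 46 and 41 cells) and Retnlg at 5.32 ± 5.35 against 2.88 ± 3.34, differences of 2.58 and 2.45 in place of 8.39 and 5.06. Mmp9 stood at 4.92 ± 3.99 against 0.41 ± 1.18, Ifitm6 at 9.56 ± 2.88 against 6.98 ± 3.93 and Slpi at 5.43 ± 4.31 against 4.67 ± 3.76. The spread between cells thus exceeded the Slpi difference many times over. The larger SD also exceeded the differences of Mmp8, Retnlg and Ifitm6 (2.58). Of these 5 genes only Mmp9, with a difference of 4.51, differed by more than either SD. Wfdc21 differed by 0.11 and Stfa2 by -0.06, and Mmp25 and Stfa1 by 0.71 and 0.72 on totals that 1 cell dominated.

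The cell names of the CD11b+ gate carry a date-like prefix that the Ly6g cells lack, the gates repeat well positions, and no label says which cells shared a capture run. Gate and capture cannot be told apart. Markers of other cell types were set beside the gates. The summed level of 8 monocyte markers ranged from 0 to 3579 TPM (median 0) in Ly6g high and from 0 to 2179 TPM (median 0.23) in Ly6g low cells, and that of 6 basophil and mast cell markers from 0 to 183 and from 0 to 222780 TPM (both medians 0). Of these lists 2 monocyte genes were 2-fold higher and 2 lower, and 5 of the basophil and mast cell genes were lower, with Fcer1a at 0 in all cells of both gates. The summed level of 6 progenitor markers ranged from 0 to 1942 TPM (median 0.12) and from 0 to 1578 TPM (median 14.7). The part of these markers in the gate differences was not tested. Restricted to cells with 1500 to 3000 detected genes (29 and 25 cells), the ratios were 6.52 for Mmp8, 5.31 for Mmp9 and 2.91 for Retnlg. Slpi at 0.94 and Ifitm6 at 0.23 no longer reached 2-fold. The restriction also changed the classes: the 25 Ly6g low cells left were all Myelo-2, and most Ly6g high Myelo-4 cells were dropped. The Ly6g low Gran-2 and Myelo-1 cells, which had low Ifitm6, were dropped as well. Gene number and class cannot be told apart here.

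In the CD11b+ over the Ly6g low gate, 4 of the 9 genes were at least 2-fold higher, against 15.5% of all genes, and 1 was at least 2-fold lower, against 6.02%. Of the 9, 5 passed the filter on low values, with 3 of them higher and 0 lower. Among all genes that passed it 30.3% were higher and 7.83% lower, with a median of 0.48. Mmp8 passed through the CD11b+ gate alone. The log2 ratios were 6.51 for Mmp8, 3.81 for Mmp9, 2.58 for Retnlg and 1.25 for Slpi, and -1.83 for Mmp25. They were -0.74 for Wfdc21, -0.21 for Stfa1, -0.06 for Stfa2 and -0.05 for Ifitm6. The median ratio over the 9 genes was -0.05. On the mean log2 scale the differences were -3.08 for Wfdc21, -2.74 for Ifitm6 and -1.25 for Retnlg. They were 1.04 for Mmp8, 0.80 for Mmp9 and 0.12 for Slpi on that scale. Ifitm6 was thus lower in most CD11b+ cells, with medians of 2.64 and 240 TPM, although its means were alike. CD11b+ cell 17, a Myelo-4 cell, made up 63% of that gate's Mmp8 and 67.1% of its Retnlg, and Myelo-3 cell 13 made up 57% of its Slpi. Mmp25 was detected in 2 CD11b+ and 3 Ly6g low cells, and 1 Ly6g low cell made up 78.9% of that gate's total. Without the highest cell of each gate the ratio of Retnlg was 1.39 and that of Slpi 0.73. On a 10% trimmed mean 1 of the 9 was 2-fold higher, and Retnlg then stood at -3.54. In the CD11b+ over the Ly6g high gate, which shares its cells with the comparisons above, 5 of the 9 were at least 2-fold lower, against 6.11% of all genes, and 0 were 2-fold higher, against 19.2%. Of the 9, 6 passed the filter, with 4 of them lower and 0 higher. Among all genes that passed it 6.93% were lower and 44.5% higher, with a median of 0.83. Mmp9 passed through the Ly6g high gate alone. The ratios were -1.88 for Mmp8, -2.43 for Mmp9, -2.54 for Mmp25, -2.48 for Retnlg and -1.30 for Ifitm6. They were -0.93 for Stfa1, -0.86 for Wfdc21 and 0.11 for Slpi, and Stfa2 was listed at 0 in both gates. On the mean log2 scale the differences were -5.31 for Ifitm6, -3.71 for Mmp9, -3.69 for Retnlg, -3.14 for Wfdc21 and -1.54 for Mmp8. They were -0.64 for Slpi, -0.64 for Mmp25 and 0.14 for Stfa1. Mmp25 was detected in 2 CD11b+ and 7 Ly6g high cells, and 1 Ly6g high cell made up 62.2% of that gate's total.

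Within the Ly6g high gate, Myelo-4 was set against Myelo-2. Of the 9 genes 7 were at least 2-fold higher in Myelo-4, against 5.50% of all genes, and 0 were 2-fold lower, against 17.6%. The median log2 ratio was 2.03 over the 9 genes and 0 over all genes. Of the 9, 6 passed the filter, under which 13.7% of genes were higher and 45.3% lower. Of those 6, 5 were higher and 0 lower, and the median over all genes that passed was -0.75. Mmp8 passed through Myelo-4 alone, being detected in all 13 of its cells and in 0 of the 27 Myelo-2 cells. Mmp8 had the highest ratio of the 9, 10.98, on the mean log2 scale 10.05 ± 2.63 against 0.15 ± 0.23 (SD over 13 and 27 cells). Retnlg followed at 5.40, from means of 11124 and 263 TPM, then Mmp25 at 3.23, Mmp9 at 2.82, Slpi at 2.03, Stfa1 at 1.39 and Ifitm6 at 1.27. Wfdc21 differed by 0.71, at 12.49 ± 0.65 against 11.75 ± 0.65 on the mean log2 scale, and Stfa2 was listed at 0 in all cells of both classes. Without the highest cell of each class the ratio of Stfa1 was 0.12, since 1 cell in each class, Ly6g high cells 90 and 47, carried nearly all of it. The Mmp25 means of 54.3 and 4.91 TPM were 15.4 and 2.48 TPM without the highest cells.

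The 9 genes made up more of the Myelo-4 transcripts as a group. Their summed level was 0.763 to 6.33% of all transcripts (median 1.98%) in Myelo-4 cells and 0.14 to 1.59% (median 0.449%) in Myelo-2 cells. Myelo-4 cells had fewer detected genes. Among cells with 1500 to 3000 detected genes (3 Myelo-4 and 23 Myelo-2 cells), the ratio was 10.85 for Mmp8, 5.25 for Retnlg and 3.17 for Mmp9, but 0.88 for Slpi and 0.59 for Ifitm6, and -2.76 for Mmp25 and -6.81 for Stfa1. The count was 3 of 9 in those cells. Monocyte markers summed to at most 1.99 TPM in the 13 Myelo-4 cells and 9.73 TPM in the 27 Myelo-2 cells, with Csf1r, Ly86, F13a1 and Fcgr1 at 0 in all of the former, and 0 of the 8 differed 2-fold.

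Within class Myelo-2, the Ly6g high cells were set against the Ly6g low cells. There, 2 of the 9 genes were at least 2-fold higher, against 7.78% of all genes, and 1, Mmp25, was at least 2-fold lower, against 10.9%. Mmp25 was detected in 4 of these Ly6g high and 3 of these Ly6g low cells. A single Ly6g low cell made up 79% of its group's total, and the difference on the mean log2 scale was 0.088. Of the 9, 5 passed the filter, with 2 of them higher and 0 lower. Among all genes that passed it 13.1% were higher and 19.8% lower, with a median of -0.13. Mmp9 passed through the Ly6g high cells alone. Mmp9 had a ratio of 4.55, from means of 128 and 4.50 TPM, and stood at 3.71 ± 3.48 against 0.50 ± 1.35 on the mean log2 scale (SD over 27 and 31 cells). It was detected in 63% of these Ly6g high cells (42.4 to 80.6%) and 9.68% of the Ly6g low cells (2.04 to 25.8%). Retnlg had a ratio of 1.04 that was 0.78 without the highest cell of each group. Mmp8 was near 0 in both, with means of 0.125 and 1.13 TPM. The ratios of Slpi, Ifitm6, Wfdc21, Stfa1 and Stfa2 were 0.93, 0.51, -0.23, -0.09 and -0.08. Mmp9 was thus higher in the Ly6g high gate with Myelo-4 cells set aside, and Mmp8 was not. Among cells with 1500 to 3000 detected genes (23 and 25 cells) the Mmp9 ratio was 4.53, and without the highest cell of each group it was 6.14.

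In the CD11b+ gate, the 14 Myelo-2 cells were set against the 8 Gran cells, classes between which lactoferrin (Ltf) differed from a median of 3.65 TPM in Gran to 9320 TPM in Myelo-2. Of the 9 genes 6 were at least 2-fold higher in Myelo-2, against 6.49% of all genes, and 1, Slpi, was 2-fold lower, against 18.9%. Of the 9, 4 passed the filter, with 3 of them higher and 1 lower. Among all genes that passed it 11.8% were higher and 55.4% lower, with a median of -1.26. Retnlg passed through the Myelo-2 cells alone. Ifitm6 ranged from 0 to 1561 TPM (median 472) in the Myelo-2 and from 0 to 3.13 TPM (median 0) in the Gran cells, a log2 ratio of 8.40. Of the 14 Myelo-2 cells 12 lay above every Gran cell. Wfdc21 had a ratio of 1.89, from 1290 to 4415 TPM against 172 to 1362 TPM, with 13 of 14 above every Gran cell. Retnlg had a ratio of 3.40 on means of 11.3 and 0.165 TPM, and 2 of the 14 cells reached 10 TPM. Slpi stood at -1.36, with 8 of 14 and 7 of 8 cells detected. Mmp9, Mmp25 and Stfa1 were listed at 0 in all 8 Gran cells and detected in 1, 2 and 3 of the 14 Myelo-2 cells. Mmp8 differed by 0.19 with means below 1 TPM, and Stfa2 was listed at 0 in both.

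**Figure D3:**
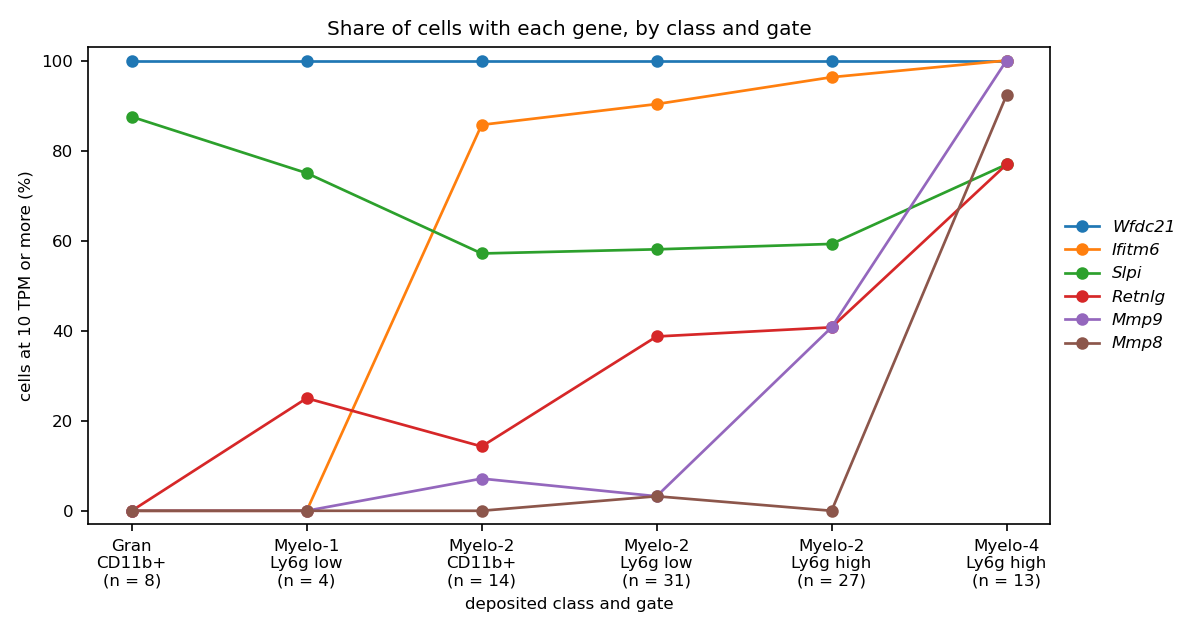
Share of cells at 10 TPM or more (vertical axis, %) for 6 of the genes in 6 groups of cells given by deposited class and gate (horizontal axis, n cells each); lines join the values of 1 gene. Wfdc21 is at 100% in every group, Ifitm6 is at 0% in the Gran and Myelo-1 groups and high from Myelo-2 on, Mmp9 is at 40.7% in the Ly6g high Myelo-2 cells and Mmp8 is at 92.3% in the Myelo-4 cells.

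**Figure D4:**
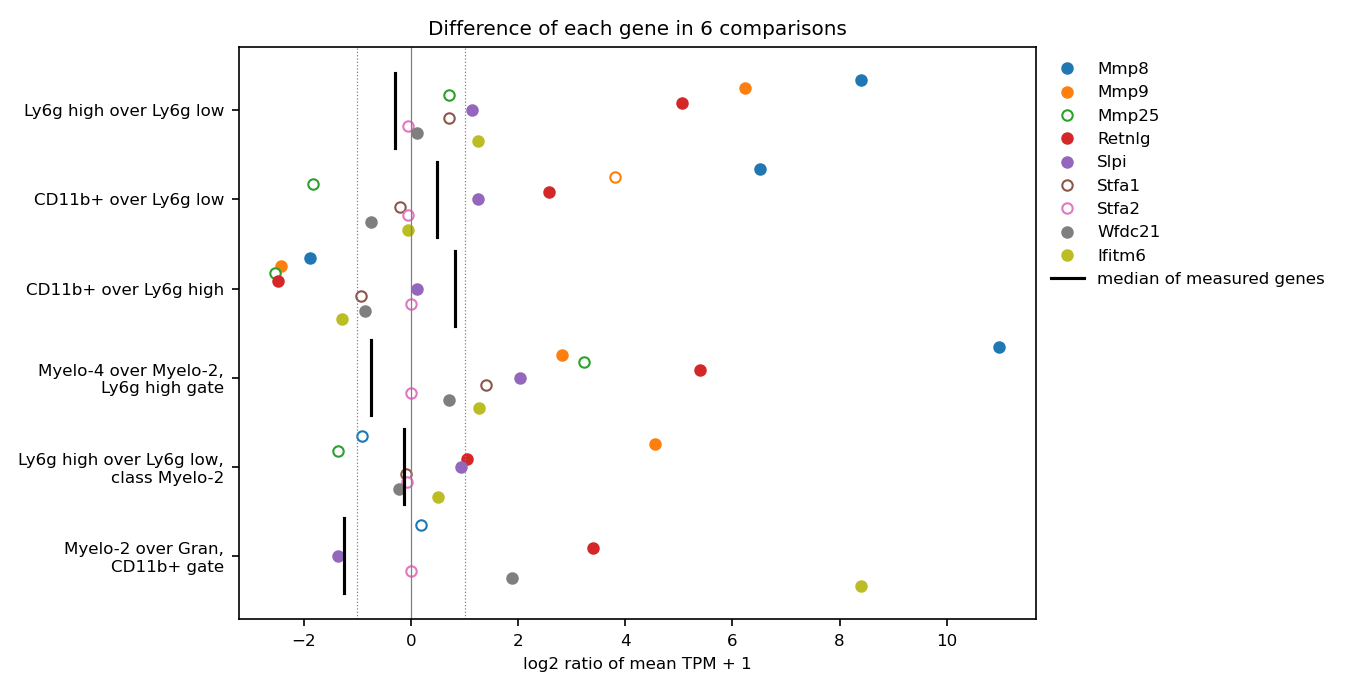
Log2 ratio of mean TPM + 1 (horizontal axis) of each of the 9 genes in the 6 comparisons (rows); filled points passed the filter on low values, open points did not, dotted lines mark 2-fold and the black bar is the median of all genes that passed. Mmp9, Mmp25 and Stfa1, listed at 0 in the Gran but not the Myelo-2 cells, have no point in the last row. Mmp8 is farthest to the right in the Myelo-4 over Myelo-2 row, at 10.98, and at -0.92 and 0.19 in the rows under it.

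Within single cells, the combinations differed even inside a class. Of the 127 cells, 8 held none of the 9 genes at 10 TPM or more, 35 held 2, 34 held 3 and 20 held 4, while 10 held 6 and 4 held 7. Of the 18 cells with Mmp8 at that level, 14 also had Mmp9 (77.8%, 52.4 to 93.6%), against 16 of 109 cells without Mmp8 (14.7%), and 13 had Retnlg. All 14 cells with both were Myelo-4 cells, a class in which 15 of 16 cells reached 10 TPM for each gene. Counts over all classes thus also carry the differences between classes. Of the 30 cells with Mmp9, 14 had Mmp8 and all 30 had Wfdc21. Of the 88 cells with Ifitm6, 86 had Wfdc21, but 25 of 39 cells without Ifitm6 also did. All 12 cells with Mmp25 held both Wfdc21 and Ifitm6. Mmp9 occurred without Mmp8 in 16 cells and Mmp8 without Mmp9 in 4.

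Several single cells went against the pattern of their class. CD11b+ cell 46, a Myelo-4 cell, had Mmp8 at 249 and Ifitm6 at 7051 TPM but Mmp9 at 0, Wfdc21 at 2.56 and Retnlg at 1.63 TPM. The Myelo-3 cells 32 and 33 of the CD11b+ gate had Wfdc21 at 9860 and 14603 TPM and Mmp9 at 179 and 172 TPM, with Ifitm6 at 6.38 and 4.90 TPM and Retnlg and Slpi at 0. Myelo-3 cell 13 of that gate had the reverse, with Wfdc21 at 0 and Slpi at 11091, Ifitm6 at 1733 and Retnlg at 125 TPM. In Ly6g high cell 79, a Myelo-4 cell, Mmp8 was at 6.27 TPM, the lowest of its class, beside Retnlg at 6750 TPM. Doublets were not called, and these cells were kept in all values.

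Over all 127 cells, the genes whose levels ran most like each of the 9 were ranked by Spearman correlation of log2(TPM + 1) among 6111 genes. The cells shared one library kit, and their number of detected genes also ran with these genes, at -0.64 for Ifitm6, -0.59 for Wfdc21 and -0.50 for Mmp9. For Wfdc21 the nearest were S100a9 at 0.78, S100a8 at 0.74 and Lcn2 at 0.61, which encode abundant antimicrobial proteins of neutrophils. For Ifitm6 they were Lgals3 (a galectin) at 0.70, Lcn2 at 0.69 and S100a9 at 0.66. For Mmp9 they were S100a9 at 0.55, Lgals3 at 0.53 and the formyl peptide receptor Fpr1 at 0.46. For the other 6 genes no value exceeded 0.42, which is too weak to read in such sparse values. The nearest were Fpr1, Prss34 and Dusp6 for Mmp8, S100a9, Scrg1 and Zbtb22 for Mmp25, Fpr2, Padi4 and Anxa2 for Retnlg, Lasp1, Iqsec1 and Tyrobp for Slpi, Tmem154 and Csf2ra for Stfa1 and Eef2k, Scmh1 and Hist4h4 for Stfa2. By the mean over the 9 genes they were S100a9 (0.33), Lgals3, Cd52, Anxa1, Lcn2, Lsp1, Plbd1 and S100a6 (0.26). Between the 9 genes themselves, the highest values were 0.49 for Wfdc21 with Ifitm6 and 0.48 for Mmp9 with Ifitm6. Within the 72 Myelo-2 cells they were 0.065 and 0.21, and all pairs lay between -0.19 and 0.22, so the values over all cells also carry the differences between classes.

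Relatives of the 9 genes were mostly silent in these cells. Of 21 other metalloproteases, their relatives and inhibitors, 7 reached 1 TPM in any cell. Lcn2, listed with them, was detected in 126 cells, with means of 16367, 12574 and 6694 TPM in the Ly6g high, Ly6g low and CD11b+ gates. The sheddase Adam10 was detected in 88 cells, at 56.3, 104 and 98.4 TPM. Of the tissue inhibitors of metalloproteases, Timp2 was detected in 10 cells and Timp1, Timp3 and Timp4 in none. Of 22 relatives of the other members, 10 reached 1 TPM in any cell. Ifitm3 had means of 1209, 394 and 465 TPM in the 3 gates, of 669 TPM in Myelo-2 and of 1932 TPM in Myelo-4 cells, and Ifitm2 was detected in 111 cells. Resistin (Retn) itself was listed at 0 in all cells. The stefins BC100530 and Stfa2l1, which share stretches with Stfa1 and Stfa2, were detected in 14 cells and 1 cell, the former with its highest value, 3911 TPM, in the Ly6g low gate.

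Other gene lists of the neutrophil lineage were set beside the 9 genes, counted over the listed genes that passed the filter on low values. In Myelo-4 over Myelo-2 cells of the Ly6g high gate, with the shares of 13.7% and 45.3% given above, 7 of 17 late surface and signalling genes were higher and 2 lower. Of 15 specific granule genes 1 was higher and 4 were lower, with Ngp at 87048 against 109448 TPM and Camp at 45634 against 65260 TPM in the mean. Both encode abundant specific granule proteins and were thus high in both classes. All 7 cycling genes were lower, with Top2a at 0.142 against 231 TPM, and 6 of 7 granulocyte regulators were lower, with Cebpe at 52.1 against 120 TPM. In Ly6g high over Ly6g low cells, with 7.96% and 23.7%, 6 of 16 late surface genes were higher and none lower, 0 of 15 specific granule genes were higher and 1 lower, and 10 of 11 primary granule genes were lower. The granule exocytosis genes, the machinery that releases granules, numbered 9, with 1 higher and 1 lower.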

How the data were processed

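Single cells were captured on the Fluidigm C1 system, copied with the SMARTer kit and sequenced as Nextera XT libraries of paired 150-base reads, per the labels. The authors deposited log2(TPM + 1) values, with Bowtie2, RSEM and mm9 named in the submitters' processing notes; no versions are named there. A second deposited file gives each cell's class; how classes were assigned is not stated in the labels or headers. TPM was recovered from the log2 values (999633 to 1005380 per cell). TPM keeps no read depth, so the number of genes at 1 TPM stands in for it. All 127 columns were matched to samples and 0 were left over; no 2 columns were identical, and no cells were clustered here.

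Genes were compared by the log2 ratio of mean TPM + 1 (pseudocount 1 TPM), with 2-fold called, over all 23946 genes. The filter on low values kept genes that were detected (1 TPM) in 25% or more of one group's cells or the other's. A gene could thus pass through 1 group alone. With 1 sample a gate no test was run; shares have exact 95% Clopper-Pearson intervals. The log2 ratio was checked by multiplying genes of resampled Ly6g low cells by known factors. The rank correlation was checked against a second calculation, and the other steps were not checked in this way. The 9 genes and all lists were chosen with earlier results of these data known. All 9 are named in every comparison; of other genes, the text names the 3 nearest by Spearman correlation for each member and 8 for all (genes at 1 TPM in at least 10% of cells, without predicted, ribosomal, small RNA and mitochondrial genes), and at most 3 of the highest mean level from each list; 1 of these genes is not reported here. Other relatives named were chosen after their values were seen or for shared sequence. Wfdc21 was matched through its older symbol. Promoter windows come from RefSeq (GRCm38.p6) and transcripts from GENCODE; no coordinates of the deposited build were mixed with them. Alternatives covered the pseudocount, the summary over cells, the highest cell, rescaling without granule genes and the number of detected genes. Python 3.11.15, numpy 2.4.6, pandas 2.3.3, scipy 1.17.1 and matplotlib 3.10.9 were used.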

Additional observations from a re-analysis of the deposited data

How the results depend on the processing

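The counts of genes past 2-fold held within 1.5 times under most alternatives. Limits on the number of detected genes also changed which classes were left in each gate. Among cells with 1500 to 3000 detected genes, the count in Ly6g high over Ly6g low was 3 of 9 (5 in all cells), that of genes lower in CD11b+ than Ly6g high 3 (5), that in Myelo-4 over Myelo-2 3 (7) and that in Ly6g high over low Myelo-2 cells 1 (2); too few Gran cells were left for the comparison of Myelo-2 with Gran. Without the 25% of cells of each gate with the fewest genes, Myelo-4 over Myelo-2 gave 4, on 5 and 25 cells, and Ly6g high over low in Myelo-2 gave 6. The latter was 1 with a pseudocount of 10 TPM, 1 without the highest cell of each group and 1 with TPM rescaled. CD11b+ over Ly6g low (4) gave 1 on the difference of mean log2 values and 1 on the trimmed mean. Myelo-2 over Gran gave 3 when counted only over genes that passed the filter (6). At a threshold of 100 TPM, 6 of 27 pairs of gene and gate had the gene in at least 50% of cells, against 12 at 1 TPM.

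Among ratios of 2-fold or more, directions turned for 4 genes. Retnlg in CD11b+ over Ly6g low (2.58) was -1.25 on mean log2 values, -3.54 on the trimmed mean and -5.05 without the cells with fewest genes. Slpi in the same comparison (1.25) was -0.15 without those cells and -0.20 at 1500 to 3000 genes, and Mmp25 (-1.83) was 0.83 without those cells. In Myelo-4 over Myelo-2, Stfa1 (1.39) was -6.70 and -6.81 under these 2 settings and Mmp25 (3.23) was -2.76 at 1500 to 3000 genes. Mmp25 in Ly6g high over low Myelo-2 cells (-1.37) was 0.088 on mean log2 values, 1.18 on the trimmed mean and 2.59 without the cells with fewest genes. The cause was not tested. Of the other single-gene ratios 441 shifted by less than the larger SD between cells of the 2 groups, or not at all, and 29 by more. That SD was wide, so Retnlg in Ly6g high over Ly6g low, at 5.06 and at 2.45 on mean log2 values, counted as unmoved. Ratios below 2-fold were not scored for a turn, such as Stfa1 there, at 0.72 and -0.15. These counts thus do not show that single ratios were stable. With Myelo classes only, an alternative chosen after seeing the data, the counts in the 3 gate comparisons were 5, 4 and 4. No paired analysis was possible because the cell numbers only name captures and no result comes from a test.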
